A study of Xenopus laevis with 11 samples.

Results

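p300 binding sites were compared between both p300 replicates of a chromatin immunoprecipitation sequencing (ChIP-seq) series on Xenopus laevis embryos taken whole at NF (Nieuwkoop-Faber) stage 10.5, the early gastrula. The members were all intervals on the 18 chromosomes whose names end in L or S in the peak list of each replicate and in the list given for the series as a whole. Replicate 1 had 31347 such peaks of 35127 in its list, and replicate 2 had 54814 of 58614. The series-wide list had 23017 of 25010. The p300 libraries were 2 of 11 samples; the others were H3K4me3, H3K4me1, H3K36me3, RNA polymerase II and an input, and none of them was used here. All embryos were pooled, cross-linked with formaldehyde and sonicated, and both p300 libraries were made with the same antibody (C-20, Santa Cruz). No genotype or treatment is given, and the embryos were taken whole, so a site may be bound in any of their cells. Whether each replicate was a separate clutch is not recorded, so their differences may be technical. The series used 2 sequencer models, and which library went on which is not recorded either.

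The protein p300 is a histone acetyltransferase and coactivator that is brought to chromatin mainly by transcription factors. It acetylates histones and other proteins at enhancers and promoters, and its ChIP-seq peaks are widely used to locate enhancers. In the early gastrula the zygotic genome is active and the germ layers and the dorsal organizer are being specified. X. laevis is an allotetraploid, and each L chromosome has an S counterpart from the other ancestral species.

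The lists hold positions without a score, so a peak was described by its start, its end, its width and its centre. The typical replicate 1 peak was 215 bp wide (median; quartiles 167 and 294 bp), and the list covered 7.88 Mb, or 0.314% of the 2508 Mb spanned by the peaks. Replicate 2 peaks were wider, with a median of 260 bp (quartiles 205 and 334 bp), and covered 15.9 Mb, or 0.635%. Each list had a smallest width at which peaks piled up: 143 bp in replicate 1, shared by 2501 peaks (7.98%), and 163 bp in replicate 2, shared by 1582 peaks (2.89%). The smallest gap between neighbouring peaks was 43 bp in both replicates. Each series-wide interval matched exactly the stretch shared by peaks of both replicates, and its text label named the replicate 1 peak. Read depth is unknown, so numbers of peaks were taken as list sizes and not as amounts of binding.

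Peaks that overlapped by at least 1 bp were joined into sites, which gave 63144 sites. Of these, 8447 had a peak in replicate 1 only (13.4% of all sites), 32339 in replicate 2 only (51.2%) and 22358 in both, here called recurring, which is 35.4% of all sites. Of the replicate 1 peaks, 73.1% (95% interval 72.6 to 73.5%) lay in recurring sites, with a mean of 73.1 ± 1.80% over the chromosomes (SD, 18 chromosomes) and a range from 70.4% on 9_10S to 76.9% on 7S. Of the replicate 2 peaks, 41.0% (40.6 to 41.4%) did, with a mean of 41.0 ± 3.48% and a range from 36.2% on 6S to 48.2% on 8L. The replicate 2 share varied more between chromosomes than the replicate 1 share. With the full lists, recurrence thus differed between the libraries by more than between chromosomes of either library. Nearly all recurring sites hold 1 peak of each replicate, so the recurring peaks were close in number, 22900 in replicate 1 and 22475 in replicate 2. The larger list then has the lower share by construction. With only as many of the widest replicate 2 peaks as replicate 1 has peaks, the shares were 56.2% of replicate 1 and 54.7% of replicate 2. Shares from lists of equal size are nearly equal by construction, and this choice also changes the widths, so these values do not separate list size from other differences between the libraries.

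At sites matched by overlap, the peak centres of the replicates mostly lay close together for their widths. Of the recurring sites, 21734 (97.2%) held exactly 1 peak of each replicate, and the centre of each peak could be compared there. The absolute distance between the centres had a median of 27.5 bp (quartiles 12 and 53.5 bp). It was at most 10 bp at 21.6% of these sites, at most 25 bp at 46.7%, at most 50 bp at 72.9% (72.3 to 73.5%), at most 100 bp at 92.5% and at most 200 bp at 99.3%. These distances are small against the peaks themselves, whose median width at these sites was 235 bp for replicate 1 and 314.5 bp for replicate 2. The centre of each peak fell inside the other peak at 93.6% of the sites (93.2 to 93.9%). Matching required overlap, so the distance between centres could not exceed the mean width of the 2 peaks. The shares at the larger distances and of centres inside the other peak are thus partly set by the matching.

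Offsets were nearly equal in number in both directions. The replicate 1 centre lay at the larger coordinate at 10866 sites and at the smaller coordinate at 10754, and the centres were equal at 114. The signed offset, replicate 1 minus replicate 2, had a median of 0 bp and a mean of 0.286 bp with an SD of 55.6 bp over sites. Its median lay between -2.5 and 2 bp on each of the 18 chromosomes. The median absolute offset was as even, from 26 to 29.5 bp (mean 27.7 ± 1.05 bp, SD over 18 chromosomes).

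**Figure D1:**
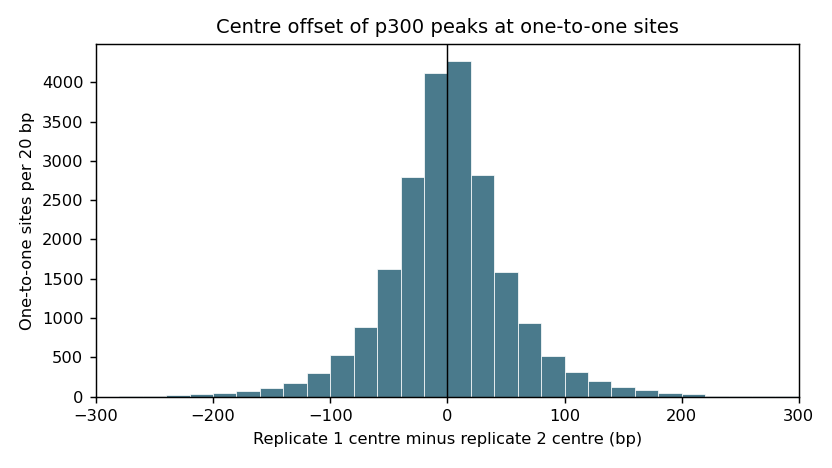
Number of sites with 1 peak in each replicate, in bins of 20 bp of the replicate 1 centre minus the replicate 2 centre (x axis, bp). The distribution is centred on 0, with a median absolute value of 27.5 bp; the 9 sites beyond 300 bp are outside the plotted range.

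The replicate 1 edges lay inside the replicate 2 edges by the same median on both sides. Its start lay a median of 32 bp inside the replicate 2 start (quartiles 0 and 70 bp), and its end lay a median of 32 bp inside the replicate 2 end (quartiles 0 and 70 bp; as a signed offset the median is -32 bp). The replicate 1 peak was the narrower at 81.8% of the sites, with a median width ratio of 0.781. At 56.9% of the sites (56.2 to 57.5%) the replicate 1 peak lay wholly inside the replicate 2 peak, at 6.53% (6.21 to 6.87%) the replicate 2 peak lay inside the replicate 1 peak, and at 36.6% the peaks were staggered. Only 5 sites had identical intervals. The overlap, which is the interval kept in the series-wide list, had a median of 215 bp (quartiles 166 and 294 bp), close to the replicate 1 width.

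Wider peaks had larger offsets in bp but smaller ones for their width. With the sites in 5 classes of equal number by the mean width of their peaks, the median offset was 23 bp in the narrowest class (153 to 212 bp) and 35.5 bp in the widest (383.5 to 1500 bp). The share of sites with centres within 50 bp was 81.8% (80.6 to 82.9%) in the narrowest class and 62.2% (60.7 to 63.6%) in the widest. As a fraction of the mean width, the median offset was 0.122 in the narrowest class and 0.0721 in the widest. The largest offsets came from peaks of unequal width. On 4L from 119502125 to 119503725, a replicate 1 peak of 620 bp lay wholly inside a replicate 2 peak of 1601 bp, and the centres were 469.5 bp apart. On 7L from 7787598 to 7788526, a replicate 1 peak of 162 bp and a replicate 2 peak of 909 bp overlapped by 142 bp, with an offset of 393.5 bp. On 1L from 32526522 to 32527383, a replicate 1 peak of 345 bp and a replicate 2 peak of 618 bp overlapped by 101 bp, with an offset of 380.5 bp. All coordinates are 1-based in the build of the deposited lists, which is not named.

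Calls were rarely split, and the splits lay mostly in replicate 1. Of the recurring sites, 527 (2.36%, 2.17 to 2.56%) held 2 or more replicate 1 peaks and 115 (0.514%, 0.429 to 0.617%) held 2 or more replicate 2 peaks; 18 held several of both. The replicate 2 share was 0.258% when an overlap of 50% of the shorter peak was required and 0.240% at equal list sizes. The most frequent layout, at 496 sites, was a pair of replicate 1 peaks under a single replicate 2 peak. The opposite layout was found at 96 sites. At the 496 sites the gap between the replicate 1 peaks had a median of 95.5 bp (quartiles 63 and 149 bp), and the replicate 2 peak over them had a median width of 666 bp. The pieces were unequal, with median widths of 185 bp for the narrower and 300 bp for the wider. The centre of the replicate 2 peak fell in the gap at 195 of these sites and in a piece at 301. At the 96 sites with the opposite layout the gap had a median of 83 bp, and the replicate 1 peak over the pieces had a median width of 547 bp. Its centre fell in the gap at 31 sites and in a piece at 65.

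Neighbouring peaks of a list that stood 43 to 100 bp apart were counted by whether a peak of the other list joined them. Replicate 1 had 499 such neighbours, and in 294 of them (58.9%) a replicate 2 peak joined both into a site. Replicate 2 had 373, and a replicate 1 peak joined 67 of them (17.96%). Joined neighbours are pieces of the split sites above, so these counts are no separate observation. Replicate 2 has more and wider peaks, and the part of list size and width in these shares was not tested. At gaps of 201 to 500 bp joining was uncommon in both directions, at 4.35% of 1286 replicate 1 neighbours and 0.412% of 1700 replicate 2 neighbours. There the most frequent outcome was that both neighbours recurred as separate sites, at 52.8% in replicate 1 and 41.9% in replicate 2, where the share with 1 recurring neighbour was nearly as large (41.2%).

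The splits with the most peaks joined 3. A replicate 1 peak of 1656 bp on 1L from 132024069 to 132025724 overlapped 3 replicate 2 peaks of 395, 425 and 874 bp, with gaps of 188 and 121 bp. A replicate 1 peak of 1905 bp on 7L from 119919486 to 119921390 overlapped replicate 2 peaks of 1138, 228 and 443 bp, with gaps of 50 and 142 bp. These were the only 2 replicate 1 peaks that met 3 peaks of the other list. In the other direction 14 replicate 2 peaks met 3 replicate 1 peaks. An example on 1L from 10013852 to 10014573 was 722 bp wide and met peaks of 237, 185 and 155 bp, with gaps of 46 and 44 bp. The next in order, on 1L from 40077428 to 40077883, was 456 bp wide and met peaks of 208, 145 and 176 bp, both gaps being 68 bp.

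Single-replicate peaks were narrower by the median than recurring ones in both libraries, with quartile ranges that overlapped. In replicate 1 the median was 176 bp for the single peaks (quartiles 150 and 223 bp), against 235 bp (179 and 321 bp) for the recurring peaks. In replicate 2 the medians were 231 bp (191 and 287 bp) for the single peaks and 318 bp (246 and 418 bp) for the recurring peaks. At the smallest width of the list, 49.2% (47.2 to 51.1%) of the replicate 1 peaks recurred and 15.1% (13.4 to 17.0%) of the replicate 2 peaks did. Over 10 width classes of equal number the share of replicate 1 peaks that recurred increased with every class, from 49.8% in the narrowest to 94.8% (94.0 to 95.5%) in the widest. In replicate 2 it also increased with every class, from 16.5% to 92.1% (91.4 to 92.8%). The widest class began at 401 bp in replicate 1 and 433 bp in replicate 2. The shares of the libraries were closer in it than in the narrowest class. The classes are ranks within each list and cover unlike widths, and the shares depend on list size. Their levels are thus not comparable between the libraries. The height of a peak is not in the lists, so its part in recurrence was not tested.

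**Figure D2:**
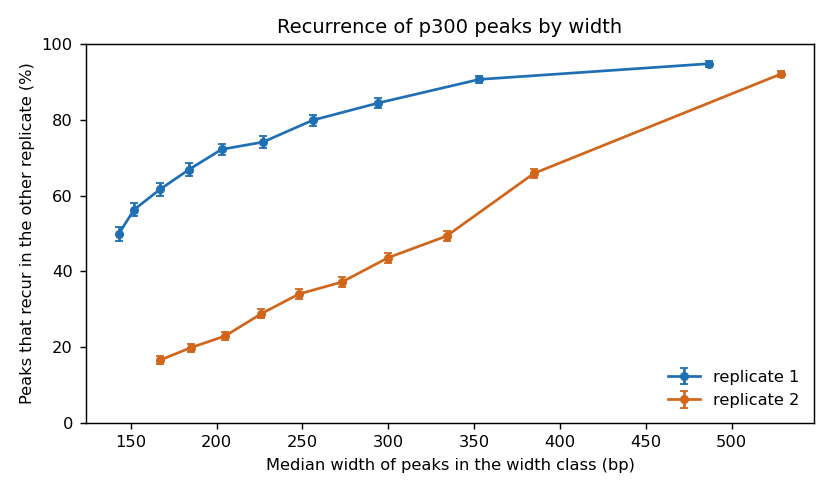
Share of peaks that overlap a peak of the other replicate (y axis, %) against the median width in bp of 10 classes of equal number, for replicate 1 and replicate 2; bars are Wilson 95% intervals. Replicate 1 runs from 49.8% to 94.8% and replicate 2 from 16.5% to 92.1%.

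Few single-replicate peaks had a peak of the other replicate within 100 bp of an edge. Shares for other positions of the genome are not given here. The shares below thus do not tell whether such near misses were rarer or more frequent than elsewhere. Of the 8447 peaks in replicate 1 only, 223 (2.64%, 2.32 to 3.004%) had a replicate 2 peak within 100 bp of an edge, and 993 (11.8%) had one within 500 bp. Of the 32339 peaks in replicate 2 only, 192 (0.594%, 0.516 to 0.684%) had a replicate 1 peak within 100 bp, and 1287 (3.98%) had one within 500 bp. The median gap to the nearest peak of the other replicate was 8466 bp for the replicate 1 peaks and 26469 bp for the replicate 2 peaks. The replicate 1 list is the sparser target, so these gaps are not comparable between the replicates.

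Spacing within each list was uneven, with many close neighbours and long empty stretches. The nearest peak of the same list lay at a median centre-to-centre distance of 6692.5 bp in replicate 1 (quartiles 1515 and 31650 bp). In replicate 2 the median was 7943.5 bp (quartiles 2219 and 24594 bp), although this list is the larger. In the series-wide list it was 7659.5 bp (quartiles 1803 and 39057 bp). A split site can give several neighbouring intervals in this list. Between recurring sites, each counted once, the median distance was 8930 bp. Set against the mean spacing of each list, 79999 bp in replicate 1, 45750 bp in replicate 2 and 108952 bp in the series-wide list, the medians were 0.0837, 0.174 and 0.0703 of it. By this ratio replicate 2 was the most evenly spaced of the lists.

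The lists crossed over with distance. Within 1 kb of a peak lay another peak for 18.3% (17.9 to 18.8%) of replicate 1, 11.8% (11.5 to 12.1%) of replicate 2 and 15.9% (15.4 to 16.4%) of the series-wide list. Within 10 kb the shares were 56.3%, 55.0% and 54.0%. Within 100 kb they were 91.4%, 96.8% and 88.1%. With the full lists, replicate 1 held the larger share of close neighbours and also of peaks with no neighbour within 100 kb, compared with replicate 2. Pieces of split sites, of which replicate 1 had more, count as close neighbours here, and their part in these shares was not tested. With only the 31347 widest replicate 2 peaks, which makes the lists equal in size, the replicate 2 median was 11975.5 bp and its upper quartile 41587 bp, against 31650 bp in replicate 1. At equal size replicate 2 was thus the wider spaced at both values, which reverses the full-list order of the upper quartiles; this choice keeps wide peaks and so changes width as well as number.

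**Figure D3:**
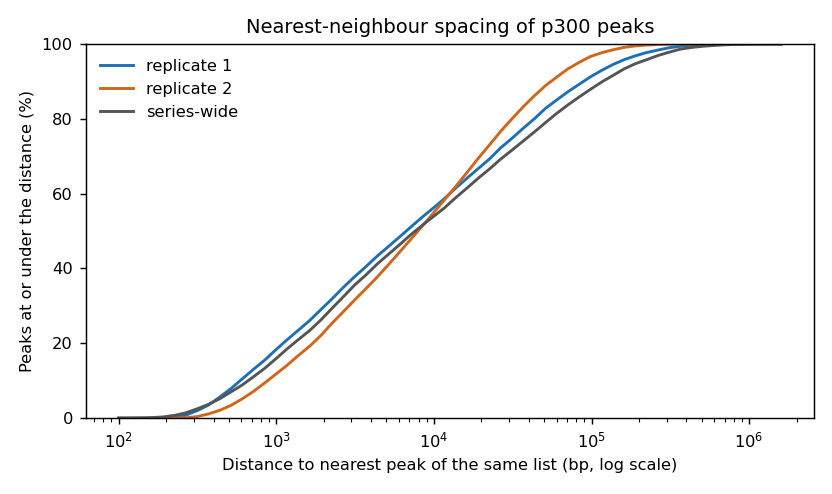
Cumulative share of peaks (y axis, %) whose nearest peak of the same list lies at or under a centre-to-centre distance (x axis, bp, log scale), for replicate 1, replicate 2 and the series-wide list. At 10 kb the shares are 56.3%, 55.0% and 54.0%; at 1 kb replicate 1 is highest and at 100 kb replicate 2 is.

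Chromosomes differed in spacing. By the median, peaks were most widely spaced on 2S in both libraries, at 9531.5 bp in replicate 1 and 9733.5 bp in replicate 2. They were closest on 8L in replicate 1 (4343.75 bp) and on 7L in replicate 2 (6265.5 bp). By mean spacing, 1S was the widest in both libraries, at 99321.5 bp in replicate 1 and 51970.9 bp in replicate 2. The mean of the chromosome medians was 7535 bp on S and 6305 bp on L in replicate 1, and 8520 bp on S and 7427 bp on L in replicate 2. The SD over the 18 chromosomes was 1518 bp in replicate 1 and 1176 bp in replicate 2. Paired by homeologue, S had the larger median in 8 of 9 pairs in replicate 1, all but 7. The mean S minus L difference was 1230.1 ± 899.6 bp (SD over 9 pairs). In replicate 2 S had the larger median in 8 of 9 pairs, all but 5, with a mean difference of 1093 ± 685 bp. The order of mean spacing differed in replicate 2. There it was smaller on 7S (39985 bp) than on 7L (42148 bp), and on 8S (36118 bp) than on 8L (40708 bp). It was larger on S in the other replicate 2 pairs and in every replicate 1 pair.

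Within 5 kb, recurring sites had another recurring site more often than single-replicate sites did, and for replicate 1 only the order was the opposite at the shortest range. Sites within 5 kb of another recurring site made up 26.6% of all sites. The share was 26.7% (25.7 to 27.6%) of the sites in replicate 1 only and 17.1% (16.7 to 17.5%) of those in replicate 2 only, against 40.3% (39.7 to 41.0%) of the recurring sites. The median distance to the nearest other recurring site was 23350 bp for replicate 1 only, 37822 bp for replicate 2 only and 8930 bp for recurring sites. Against the 26.6% of all sites, the share was thus about the same for replicate 1 only, lower for replicate 2 only and higher for recurring sites. All sites are made of these same classes, so this ranks the classes against each other only. Shares for other positions of the genome are not given here. Whether any class lay nearer to recurring sites than such positions was not tested.

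At 5 kb these differences had the same sign on every chromosome. The share within 5 kb was lower for replicate 1 only than for recurring sites on 18 of 18 chromosomes, with a mean difference of -13.5 ± 3.68 percentage points (SD over 18 chromosomes). It was lower for replicate 2 only than for recurring sites on 18 of 18, with a mean difference of -23.1 ± 3.13. It was higher for replicate 1 only than for replicate 2 only on all 18, with a mean difference of 9.59 ± 2.27 percentage points. The recurring share itself ranged from 33.1% on 2S to 47.3% on 7S. No p-value is attached, because the study has 2 libraries and neither sites nor chromosomes are replicates of a library.

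In percentage points the differences were smaller at short range, and for replicate 1 only they turned round. The shares themselves also fell with distance. For recurring sites the share was 40.3% within 5 kb and 22.8% within 2 kb, and for replicate 2 only 17.1% and 8.83%. A smaller difference in points is thus not a smaller contrast in proportion. Within 2 kb the differences from recurring sites were -5.73 percentage points for replicate 1 only and -13.96 for replicate 2 only. Within 500 bp, a distance chosen after the values were seen, lay 3.87% (3.48 to 4.30%) of the sites in replicate 1 only and 1.12% (1.01 to 1.24%) of those in replicate 2 only, against 1.62% (1.47 to 1.80%) of the recurring sites. Within 1 kb of another recurring site lay 10.2% (9.55 to 10.8%) of the sites in replicate 1 only, against 10.9% (10.5 to 11.3%) of the recurring sites, a difference within the counting intervals. The share for replicate 2 only was 4.30% (4.08 to 4.52%). Recurring sites merge the peaks of both libraries and had a median width of 338 bp, against 176 bp for replicate 1 only and 231 bp for replicate 2 only, and the part of width in this value was not tested.

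**Figure D4:**
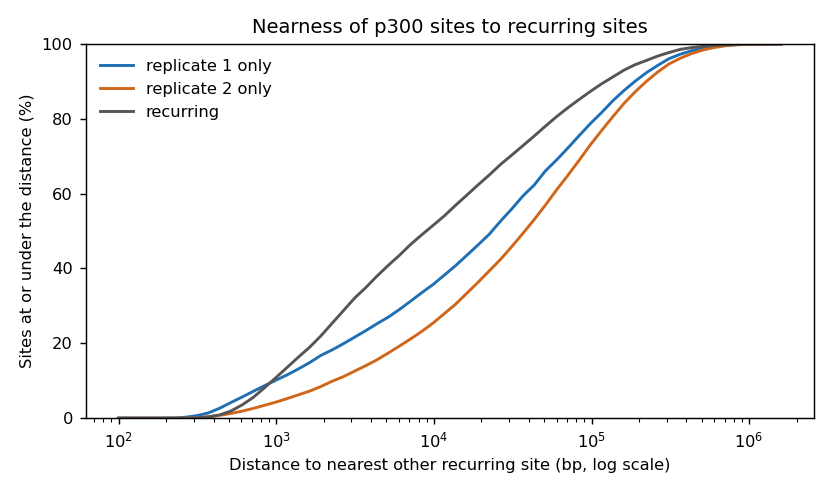
Cumulative share of sites (y axis, %) whose nearest other recurring site lies at or under a centre-to-centre distance (x axis, bp, log scale), for sites in replicate 1 only, in replicate 2 only and in both (recurring). At 5 kb the shares are 26.7%, 17.1% and 40.3%; the replicate 1 only curve is above the recurring curve at 500 bp and crosses below it just under 1 kb.

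Sites also sorted by the class of their neighbours. The nearest site was a recurring one for 37.1% of all sites. It was recurring for 36.5% (35.4 to 37.5%) of the sites in replicate 1 only and 31.6% (31.1 to 32.1%) of those in replicate 2 only, against 45.4% (44.7 to 46.0%) of the recurring sites. Sites in replicate 1 only made up 13.4% of all sites but were the nearest neighbour of 21.6% (20.8 to 22.5%) of their own class. Sites in replicate 2 only made up 51.2% of all sites and were nearest to 56.4% (55.9 to 57.0%) of their own class and to 40.7% (40.1 to 41.4%) of the recurring sites. Each class thus had its own kind as nearest neighbour more often than its share of all sites.

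Groups were built by chaining sites whose centres lay at most 10 kb from the next. Of 37664 groups, 26124 were a site alone and 5172 held 3 or more sites, and these larger groups took in 24284 sites, 38.5% of all. They took in 39.2% (38.1 to 40.2%) of the sites in replicate 1 only and 28.0% (27.5 to 28.4%) of those in replicate 2 only, against 53.4% (52.7 to 54.0%) of the recurring sites. Sites standing alone were 38.7% of replicate 1 only, 51.3% of replicate 2 only and 28.0% of recurring sites, against 41.4% of all sites. With chaining at 5 kb the larger groups took in 24.2% of all sites, and groups of 5 or more sites at 10 kb took in 20.4%. Groups of 10 or more sites held 5.06% of replicate 1 only, 3.36% of replicate 2 only and 10.8% of recurring sites, against 6.21% of all sites.

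The larger the group, the larger the share of its sites that recurred. Recurring sites were 24.0% (23.4 to 24.5%) of sites alone, 32.7% of sites in groups of 2, 42.0% in groups of 3 or 4 and 52.9% in groups of 5 to 9. They were 61.0% (59.1 to 62.8%) in groups of 10 to 14 and 62.3% (59.7 to 64.9%) in groups of 15 or more, which do not differ beyond their intervals. The share in replicate 2 only took the opposite course, from 63.5% of sites alone to 26.6% in groups of 15 or more. The share in replicate 1 only stayed between 10.8% and 14.7% throughout. Replicate 1 had 0.421 peaks for each replicate 2 peak among sites alone and 0.855 in groups of 15 or more. Nearly all recurring sites hold 1 peak of each replicate, so this ratio largely restates the class shares. Peaks also cover more of the length of large groups. Replicate 2 peaks covered 9.34% of groups of 3 or 4 sites and 12.6% of groups of 15 or more, against 0.635% of all spans. The part of this coverage in the result was not tested.

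**Figure D5:**
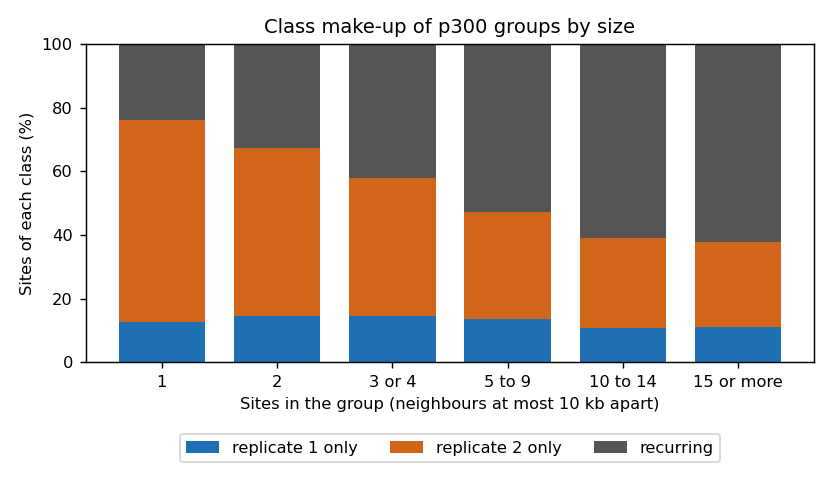
Share of sites (y axis, %) in replicate 1 only, in replicate 2 only and in both (recurring), by the number of sites in the group (x axis, neighbours at most 10 kb apart); the bars of a group size add up to 100%. The recurring share is 24.0% for sites alone and 62.3% in groups of 15 or more.

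Recurrence was higher among peaks with more neighbours in both libraries. The size of the rise is not comparable between them, since the shares start at unlike levels and depend on list size. Peaks of each list were counted by the number of other peaks of the same list within 10 kb. In replicate 1, 67.6% (66.8 to 68.4%) of the peaks with no such neighbour recurred, and 84.1% (82.6 to 85.5%) of those with 5 or more did. In replicate 2 the shares were 28.7% (28.1 to 29.3%) and 71.9% (70.4 to 73.4%). Peaks with 5 or more neighbours were also wider, with median widths of 265 bp against 198 bp for those with none in replicate 1, and 327 bp against 248 bp in replicate 2. With each list in 3 width classes of equal number, the narrowest replicate 1 peaks, up to 181 bp, gave shares of 59.8% (55.4 to 64.1%) with 5 or more neighbours and 55.8% (54.5 to 57.1%) with none, intervals that overlap. Among the widest they were 95.3% (93.9 to 96.4%) and 83.6% (82.3 to 84.8%). In replicate 2 the narrowest class, up to 222 bp, gave 37.9% (34.4 to 41.6%) with 5 or more neighbours and 15.5% (14.8 to 16.2%) with none. Its widest class gave 89.0% (87.5 to 90.4%) and 50.1% (48.9 to 51.3%). Within the widest class the peaks with 5 or more neighbours were again the wider, with medians of 374 bp against 322 bp in replicate 1 and 441 bp against 353 bp in replicate 2, so width was only partly held fixed there. The middle class had closer medians, 220 bp against 213 bp in replicate 1 and 263 bp against 261 bp in replicate 2. Its replicate 1 shares were 81.9% (78.7 to 84.7%) with 5 or more neighbours and 69.8% (68.4 to 71.0%) with none. Its replicate 2 shares were 62.9% (59.5 to 66.1%) and 27.2% (26.3 to 28.1%).

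Most groups were mixed. Of the 5172 groups of 3 or more sites, 4374 (84.6%) held a recurring site, 1363 held all classes and 348 were made of recurring sites alone. Of the 798 with no recurring site, 370 were made of sites in replicate 2 only, 45 of sites in replicate 1 only, and 383 held both kinds at separate places. Recurring sites were 35.4% of all sites, so many groups of this size would hold such a site whatever their make-up. The share to expect from this was not computed, so 84.6% is not by itself a result about grouping. When groups of 3 or more peaks were built from each replicate alone, replicate 1 gave 2532 groups and replicate 2 gave 4169. Of the replicate 1 groups, 79.6% (78.0 to 81.1%) overlapped a replicate 2 group and 97.6% held a replicate 2 peak. Of the replicate 2 groups, 48.0% (46.5 to 49.5%) overlapped a replicate 1 group and 90.3% held a replicate 1 peak. The second share of each library is the larger nearly by definition, since a group of the other library is made of its peaks. Shares for other stretches of like length are not given here.

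The group with the most recurring sites lay on 3L from 136398716 to 136504287 (105.6 kb). It held 4 sites in replicate 1 only, 9 in replicate 2 only and 33 recurring sites, made of 39 replicate 1 peaks and 42 replicate 2 peaks. The next 2 were on 7S. That from 67823155 to 67903208 (80.1 kb) held 0 sites in replicate 1 only, 5 in replicate 2 only and 21 recurring sites. That from 16895474 to 16949185 (53.7 kb) held 2 sites in replicate 1 only, 6 in replicate 2 only and 20 recurring sites. The longer 7S group held 21 replicate 1 and 26 replicate 2 peaks, and the shorter held 25 replicate 1 and 26 replicate 2 peaks. All these groups were picked for their recurring sites, each with at least 1 peak of each replicate. Similar numbers of peaks are thus largely set by this choice.

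Examples of the groups that belonged to a single library follow, taken by their number of sites among groups with no recurring site. On 9_10S from 44309070 to 44320455, 9 replicate 1 peaks of 151 to 471 bp stood within 11.4 kb, and the nearest replicate 2 peak was 38.8 kb away. On 8L from 41096654 to 41106164, 6 replicate 1 peaks of 156 to 728 bp stood within 9.51 kb, 66.4 kb from the nearest replicate 2 peak. On 4L from 60205009 to 60222585, 5 replicate 1 peaks of 149 to 255 bp stood within 17.6 kb, 15.9 kb from the nearest replicate 2 peak. The median widths in the first 2 of these groups, 302 and 301.5 bp, were above the 176 bp of replicate 1 only sites in general. In the third the median was 165 bp. The groups with the most replicate 2 only sites among those with no recurring site spread over longer stretches, and their median widths were 194, 254.5 and 208.5 bp, against 231 bp for replicate 2 only sites in general. On 5L from 16576349 to 16607218, 7 replicate 2 peaks of 163 to 322 bp stood within 30.9 kb. On 7L from 109737383 to 109768872, 6 peaks of 191 to 309 bp stood within 31.5 kb. On 8S from 7839154 to 7866016, 6 peaks of 177 to 282 bp stood within 26.9 kb. The nearest replicate 1 peaks were 16.9, 29.5 and 10.5 kb from the 5L, 7L and 8S groups. The 7L and 8S groups were among 5 tied in number of sites, and the 4L group among 2. Ties were taken in chromosome order, so the longer stretches hold for the named groups only.

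The widest sites in replicate 1 only were far from any replicate 2 peak, and those in replicate 2 only were at mixed distances from a replicate 1 peak. The widest in replicate 1 only lay on 3L from 143122432 to 143124513 (2082 bp), which is the widest peak of its list, and the second lay next to it from 143124668 to 143125747 (1080 bp). The nearest replicate 2 peak was 36.5 kb from the first. The third lay on 8L from 99820415 to 99821474 (1060 bp), 120.4 kb from a replicate 2 peak. The widest in replicate 2 only were on 1S from 133752776 to 133753639 (864 bp), on 3S from 12590904 to 12591757 (854 bp) and on 9_10L from 41931250 to 41932085 (836 bp). Their nearest replicate 1 peaks were 28.0 kb, 302 bp and 3.48 kb away.

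Long intervals without a recurring site still held single-replicate sites of both kinds, of which replicate 2 only sites make up 79.3% over all chromosomes. The longest lay on 4S from 45154966 to 48827211 (3.67 Mb) and held 5 sites in replicate 1 only and 28 in replicate 2 only. The next lay on 7L from 60073729 to 63384909 (3.31 Mb), with 7 in replicate 1 only and 23 in replicate 2 only. The third lay on 1S from 34105151 to 36705596 (2.60 Mb), with 7 in replicate 1 only and 21 in replicate 2 only. Per Mb these intervals held 7.62, 6.95 and 8.08 sites in replicate 2 only, against 12.9 over all chromosomes. They held 1.36, 2.11 and 2.69 sites per Mb in replicate 1 only, against 3.37 over all chromosomes, so both kinds were sparser there.

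Sites were also counted on the scale of 1 Mb. Over 2499 bins of 1 Mb, sites in replicate 1 only numbered 3.36 per bin and those in replicate 2 only 12.9, against 8.91 recurring sites. The variance divided by the mean, which depends on the mean count, was 2.40 for replicate 1 only and 3.03 for replicate 2 only, against 6.27 for recurring sites. The SD divided by the mean was 0.846 for replicate 1 only and 0.485 for replicate 2 only, against 0.839 for recurring sites. This measure and the number of empty bins depend on the mean count as well. Because the classes differ in mean count, these values do not rank them by evenness. Bins without a site numbered 246 for replicate 1 only and 2 for replicate 2 only, against 77 for recurring sites. The outermost 10% at each end of the chromosome spans held 25.3% (24.4 to 26.2%) of replicate 1 only, 23.4% (22.9 to 23.8%) of replicate 2 only and 24.0% (23.5 to 24.6%) of recurring sites, where 20% of the length lies.

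Chromosome 8S stood apart in sites of replicate 2 only. It held 16.8 of them per Mb, whereas the other chromosomes held from 12.1 (5S) to 14.5 (7S), and its homeologue 8L held 12.7. For recurring sites 8S was not highest: 8S had 10.8 per Mb, and 8L and 9_10L had 11.8 and 11.9. It was still denser than all chromosomes together in both other classes. Its recurring sites compare with 8.92 per Mb over all chromosomes, and its 4.22 replicate 1 only sites per Mb with 3.37. Of the 20 bins of 1 Mb with the most replicate 2 only sites, 10 lay on 8S, and the first of them, from 3000001 to 4000000, held 58, with 2 sites in replicate 1 only and 14 recurring. The first 14 Mb of 8S, a length chosen after these bins were seen, held 32.9 replicate 2 only sites per Mb, against 14.2 on the remainder of 8S. The density of that remainder lies within the range of the other chromosomes. Over the same 14 Mb the density was 4.79 per Mb for replicate 1 only and 11.0 for recurring sites, against 4.13 and 10.8 on the remainder. The stretch was picked for its replicate 2 only sites, so a larger contrast for that class was built into the choice. The first 14 Mb of 8L held 12.6 replicate 2 only sites per Mb, against 12.7 on its remainder. For replicate 1 only the 8L densities were 6.64 and 4.33, and for recurring sites 18.1 and 11.0.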

How the data were processed

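Peak lists of both p300 ChIP-seq libraries and a p300 list of the whole series were used. The submitters' processing notes name the tools MACS2 2.1.0.20140616, bedtools and BWA 0.7.10-r789, without roles or settings. Build, threshold, duplicate handling and control: not given in the sources used here. Deposited values are 0-based interval positions in bp with no header, score or p-value, printed here 1-based. Intervals on scaffolds were left out. Threshold, fragment length and depth can each change which peaks were called, and how wide.

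With Python 3.11.15 and numpy 2.4.6, peaks overlapping by at least 1 bp were joined into sites, and the centre of a site is the middle of its merged interval. Intervals on shares are Wilson 95% intervals. They cover counting error only and take each peak as an independent event. Chromosome spans end at the last replicate peak. No p-values were computed, since 2 libraries of 1 group leave nothing to permute. The functions were tested on simulated data. Named regions follow ranking rules with 3 regions each: groups by sites of a class, peaks by number of peaks met, offset, width, and interval length, with ties in chromosome order (for peaks meeting 3 others, 2 are described). The 1 Mb bins on 8S and the first 14 Mb were singled out after their values were seen. The members and measures were chosen with earlier results of these data known. A genome sequence and gene positions of the build were not used here, so no sequences or genes are given. Alternatives were an overlap of 50% of the shorter peak, equal list sizes, removal of narrow peaks, other distances, and each replicate alone.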

Additional observations from a re-analysis of the deposited data

How the results depend on the processing

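Of 40 differences between single-replicate and recurring sites, over the comparisons of nearness, grouping and nearest class and their alternatives, 39 were below 0. These values include the main ones and reuse the same 2 lists under nested settings, so their tally is no measure of robustness. The exception was nearness within 500 bp, an alternative chosen after seeing the data, where the difference was 2.25 percentage points for replicate 1 only, a reversal, and -0.504 for replicate 2 only. With an overlap of 50% of the shorter peak, 71.8% of replicate 1 and 40.4% of replicate 2 peaks recurred, 73.6% of one-to-one sites had centres within 50 bp, 1.96% and 0.258% of recurring sites held several replicate 1 or several replicate 2 peaks, and 39.1% of all sites lay in groups of 3 or more. With the same number of widest peaks in both replicates the recurring shares were 56.2% and 54.7%, the centre share 70.7%, the split shares 3.05% and 0.240%, the grouped share 35.0% and the median spacing of replicate 2 was 11975.5 bp. Without the narrowest peaks of each list (width below its first quartile) the replicate 1 split share was 2.00%, the grouped share 33.8%, and the median spacings were 8012 bp in replicate 1 and 9877 bp in replicate 2. Centres within 25 bp made up 46.7% and within 100 bp 92.5%. Within 2 kb of a recurring site the differences were -5.73 percentage points for replicate 1 only and -13.96 for replicate 2 only. The grouped share was 24.2% with chaining at 5 kb and 55.9% at 20 kb, and 58.6% for groups of 2 or more and 20.4% for groups of 5 or more. Leaving out a replicate means that the full peak list of the other was used alone. The grouped share was then 34.8% of peaks without replicate 1 and 36.8% without replicate 2. The median spacing was 7943.5 bp without replicate 1 and 6692.5 bp without replicate 2, against 7659.5 bp in the series-wide list. The cause of these changes was not tested. The remaining 39 of 69 alternative values stayed within a set margin. For shares this was the counting interval, and for spacing the SD of the 2 replicate medians. For nearness, grouping and nearest class it was the SD of the replicate 1 only and replicate 2 only differences. That SD reflects a difference between classes and is wide, so this count does not measure robustness. It also includes the replicate 1 spacing at equal list size, which could not move. No paired analysis was possible because a single target was analysed, so its replicate numbers pair with no other group. Unknown depth limits all comparisons of list size.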
